A study of Rattus norvegicus with 6 samples.

Results

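Interferon response genes are the genes that vertebrate cells switch on after an interferon binds its receptor. Their set here is a list of 35 rat symbols, and a gene counted as a member when the accession of an array probe led to one of those symbols in RefSeq. Of the 35, 33 were on the array, among 27455 named genes and unnamed probes in all, while Rigi (an RNA sensor) and Xaf1 (an apoptosis factor) were not matched to a probe. Where a gene had several probes the brightest was used, so array values chose among the probes of the 4 members that had more than 1, and no difference between samples entered the choice.

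The series followed ADSCs, stem cells of the mesenchymal kind cultured from rat adipose tissue, after loading with the radioiodine tracer 124I-HIB, and it holds 6 one-colour arrays of material from 13-week-old Sprague Dawley rats. Treated myocardium (2 arrays, numbered replicates 1 and 3 in the labels) had an induced infarct and received tracer-labelled ADSCs by injection into the heart muscle. PBS myocardium (1 array) came from an infarcted heart injected with buffer, and sham myocardium (1 array) from a rat that had the operation without an infarct. The labels put all 4 myocardial samples at 21 days and count this from a sham operation for the infarcted ones too. The time since infarction is therefore unclear. The labelled and unlabelled ADSCs (1 array each) had been cultured for 14 days. The labels do not state whether the treated pair were 2 animals, so any p-value reflects the spread of that pair alone, and this may be technical. Sham, PBS and both kinds of cell have no replicate.

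Type I interferons bind a receptor whose kinases, JAK1 and TYK2, lead to a complex holding STAT2 and IRF9 that binds the interferon-stimulated response element (ISRE) of target genes. Interferon gamma has its own receptor and acts mainly at gamma-activated sites (GAS). Many targets sense viral RNA, block viral replication or prepare peptides for presentation, and some, such as Irf7 and Stat2, feed the pathway back. In mouse infarcts, DNA of dying cells taken up by macrophages is known to start this response through IRF3.

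Promoter sequence was searched for the ISRE core and the GAS letters, and neither was present in every member with a window. RefSeq windows on GRCr8, from 250 bases before to 50 bases after the gene start, were at hand for 26 of the 33 members, and Dhx58, Isg15, Usp18, Mx2, Ifit1, Ifit2 and Rtp4 had no entry. The ISRE core, GAAA followed by any 2 bases and GAAA again, read on both strands, was present in 16 of 26 member windows (61.5%), against 3.92% of all 33469 windows. The GAS letters TTCNNNGAA, which read the same on both strands, were present in 7 of 26 (26.9%), against 8.87% of all windows. Both motifs were present in 5 members (Bst2, Irgm, Oas1a, Parp14 and Psmb8) and in 0.514% of all windows, and in 1 member, Bst2, a match to one shared bases with a match to the other. A match is a description of letters and not a proven site.

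Windows of 7 members are printed on the gene's own strand, with matches to the ISRE core in capitals. They are Irf7 (chr1:205799974-205800273, minus strand), Oas1a (chr12:41330216-41330515, plus strand), Mx1 (chr11:50294557-50294856, minus strand), Ifit3 (chr1:241527076-241527375, plus strand), Rsad2 (chr6:48788071-48788370, minus strand), Bst2 (chr16:18254918-18255217, minus strand) and Trim25 (chr10:74309774-74310073, plus strand). Irf7, Oas1a, Mx1, Ifit3 and Rsad2 are shown because they are the members with a window that were lower on the PBS array than on the sham array by 0.67 or more on the log2 scale, Bst2 because it was one of the few higher there, and Trim25 because it was the member furthest apart between labelled and unlabelled cells. The match begins 69 bases before the gene start in Irf7, 44 in Ifit3 and 147 in Rsad2. Oas1a (41 and 35 bases before) and Bst2 (131 and 125) each have 2 matches that overlap. No match to either motif was found in the windows of Mx1 and Trim25.
Irf7: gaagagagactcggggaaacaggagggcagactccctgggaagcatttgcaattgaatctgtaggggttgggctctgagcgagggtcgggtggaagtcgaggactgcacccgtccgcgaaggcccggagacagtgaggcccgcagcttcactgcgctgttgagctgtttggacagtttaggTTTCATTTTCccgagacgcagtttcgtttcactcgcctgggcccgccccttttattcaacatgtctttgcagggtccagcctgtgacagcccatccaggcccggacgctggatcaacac
Oas1a: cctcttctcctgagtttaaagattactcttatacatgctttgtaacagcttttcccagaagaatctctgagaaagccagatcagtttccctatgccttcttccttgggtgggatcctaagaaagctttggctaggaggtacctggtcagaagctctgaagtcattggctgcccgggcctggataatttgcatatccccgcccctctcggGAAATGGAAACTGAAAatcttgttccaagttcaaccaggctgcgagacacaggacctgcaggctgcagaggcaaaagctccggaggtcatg
Mx1: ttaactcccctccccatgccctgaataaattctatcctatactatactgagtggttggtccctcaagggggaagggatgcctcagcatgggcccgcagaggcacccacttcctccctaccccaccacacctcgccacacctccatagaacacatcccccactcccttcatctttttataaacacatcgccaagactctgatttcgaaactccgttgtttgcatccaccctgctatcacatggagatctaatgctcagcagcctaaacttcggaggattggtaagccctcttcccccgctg
Ifit3: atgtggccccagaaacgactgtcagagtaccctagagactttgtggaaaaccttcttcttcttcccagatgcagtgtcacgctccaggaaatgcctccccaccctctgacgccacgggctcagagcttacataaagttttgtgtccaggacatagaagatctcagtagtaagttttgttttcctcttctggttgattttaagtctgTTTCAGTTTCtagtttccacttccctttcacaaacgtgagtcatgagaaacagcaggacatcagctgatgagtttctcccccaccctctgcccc
Rsad2: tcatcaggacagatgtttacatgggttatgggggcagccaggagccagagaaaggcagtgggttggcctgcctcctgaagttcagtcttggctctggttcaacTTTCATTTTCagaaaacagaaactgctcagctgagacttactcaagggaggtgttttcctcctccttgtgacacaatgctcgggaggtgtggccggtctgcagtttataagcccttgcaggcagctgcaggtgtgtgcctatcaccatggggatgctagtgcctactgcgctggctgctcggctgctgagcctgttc
Bst2: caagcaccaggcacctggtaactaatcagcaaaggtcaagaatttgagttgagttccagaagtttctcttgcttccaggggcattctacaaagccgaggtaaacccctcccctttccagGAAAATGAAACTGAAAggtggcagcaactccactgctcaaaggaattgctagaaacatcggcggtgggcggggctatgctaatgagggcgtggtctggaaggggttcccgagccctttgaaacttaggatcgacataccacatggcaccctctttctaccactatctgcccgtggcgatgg
Trim25: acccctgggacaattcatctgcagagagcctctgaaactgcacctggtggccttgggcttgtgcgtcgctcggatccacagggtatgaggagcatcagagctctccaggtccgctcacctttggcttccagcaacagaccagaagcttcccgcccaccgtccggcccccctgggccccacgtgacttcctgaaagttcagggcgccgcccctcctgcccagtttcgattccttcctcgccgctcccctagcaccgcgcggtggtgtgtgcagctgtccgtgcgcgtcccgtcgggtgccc

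Throughout, a level is the log2 of the scanner's background-subtracted signal minus the log2 of that array's 75th percentile, so a level of 0 is the 75th percentile and a difference of 1 is 2-fold. A probe was counted as measured where the scanner software called most of its spots well above background. Of the 33 members, 30 were measured on all 6 arrays. Ifit1, a protein that binds viral RNA ends, was not well above background on any array. Oasl, an OAS-like protein, was measured on treated replicate 1 and on both cell arrays, and Dtx3l, a ubiquitin ligase, on all but treated replicate 1. Spots of 1 probe within an array had a median SD of 0.065 on the log2 scale over the 29 members that were measured on all 6 arrays and had more than 1 spot. Among those 29 the SD reached 0.423, for Ifi35 on the sham array. In the dim members left out of that median the SD reached 0.950 for Ifit1, 0.543 for Dtx3l and 0.398 for Oasl. That is error within an array and says nothing of error between hearts. Probes of Oas1a, Mx1, Mx2, Ifi27 and the guanylate-binding proteins have close relatives in the rat genome and may read more than 1 gene.

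The labelled tissue and cells were checked against marker genes. The 8 ventricular cardiomyocyte markers were all measured on the 4 myocardial arrays, and the 8 stromal markers on both cell arrays, where the cardiomyocyte genes Myh6 and Myl2 were not well above background. The other 6 cardiomyocyte markers were measured in the cells too, but the list's summed signal, relative to the 75th percentile, was 4.89 in labelled and 4.55 in unlabelled cells, against 1553 to 2336 in myocardium. The 75th percentile was a signal of 1276 and 1058 in treated, 1120 in PBS, 772 in sham, 2615 in labelled and 2360 in unlabelled samples, and no spot was saturated. All arrays lay on 1 slide in 1 scan, with the myocardial arrays in one row and the cell arrays in the other.

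The first comparison set infarcted, PBS-injected myocardium against sham myocardium. Most interferon response genes were lower on the PBS array, by modest amounts: 28 of 31 measured members (background: 55.9% of 16617 features were lower) and 3 higher (44.1%). The median log2 difference was -0.38, against -0.05 over all features. Of the 31, 0 were 2-fold lower, where 1.29% of features were, and 0 were 2-fold higher, where 1.99% were. At 1.5-fold, 8 were lower, where 6.58% of features were, and 0 higher, where 5.83% were. With 1 array a group there is no test of these values, and fewer cells of a type cannot be told apart from less RNA per cell in bulk tissue.

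By role group, the ISG15 pair had the median furthest from sham, at -0.94. Usp18, the protease that removes ISG15 from proteins and damps the interferon receptor, had a level of -0.90 on the PBS array, against 0.08 on the sham array (log2 difference -0.98). Its second, dimmer probe gave -2.11 on the PBS array and -1.13 on the sham array, the same difference. Isg15, a ubiquitin-like protein conjugated to other proteins, had 0.61 on the PBS array and 1.51 on the sham array, a difference of -0.90. Both treated arrays lay between these values for both genes, as they did for 15 of the 30 members measured on all 4 myocardial arrays, against 14.7% of features.

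Antiviral effectors were lower as well. Oas1a, which makes the signal that activates RNase L, had -1.79 on the PBS array, against -0.87 on the sham array, a difference of -0.92 that among single members only that of Usp18 exceeded. Mx1, a GTPase that traps viral nucleoproteins, had 0.67 on the PBS array, against 1.44 on the sham array. Mx2 (3.82 on the PBS array, 4.19 on the sham array) and Oasl2 (0.02 and 0.39 in the same order) differed less. The role group's 4 measured members were all lower, with a median of -0.57.

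Of the IFIT family, which binds viral RNA, Ifit3 had -2.46 on the PBS array, against -1.79 on the sham array, while Ifit2 differed by -0.24. Rsad2 (viperin, which makes a chain-terminating nucleotide) had 0.65 on the PBS array and 1.36 on the sham array. Its neighbour in function, the nucleotide kinase Cmpk2, had -0.77 on the PBS array and -0.36 on the sham array. Both genes were therefore lower, and by 0.71 and 0.40 in log2 size. Rtp4, a receptor transporter protein, had -0.16 on the PBS array, against 0.62 on the sham array. Ifi44, Ifi27 and Ifi35 had differences of -0.42, -0.36 and -0.30. The Ifi35 spots on the sham array had an SD of 0.423, larger than the size of its difference.

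Among the transcription factors, Irf7, the factor that amplifies interferon production, had 1.53 on the PBS array, against 2.27 on the sham array (-0.74). Stat2 differed by -0.45, while Irf1 (-0.08) and Irf9 (0.10) lay close to sham. The sign of the Irf1 difference turned with quantile normalization and in the authors' table, and that of Irf9 with another background correction. The RNA sensors Ifih1 (-0.38), Trim25 (-0.41), which tags RIG-I for activation, and Dhx58 (-0.09) were all lower. The immunoproteasome subunits, which cut peptides for presentation, formed an even group: Psmb8, Psmb9 and Psmb10 differed by -0.52, -0.41 and -0.46.

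Bst2, the tetherin that holds virus particles on the cell surface, was the member highest on the PBS array against sham. Its probe has 1 spot per array, so no SD between spots is known for it. Its levels were 1.80 and 1.82 in treated myocardium, 1.45 in PBS myocardium and 1.33 in sham myocardium. All 3 infarcted arrays were thus above sham, which held for 2 of 30 members (Bst2 and Irf9) and for 24.5% of features. All 3 were below sham for 23 of 30 members, against 34.8% of features. The third member higher on the PBS array than on the sham array was Dtx3l (0.06), whose sign turned under 3 other settings, each of them a change of scaling or background correction.

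**Figure D1:**
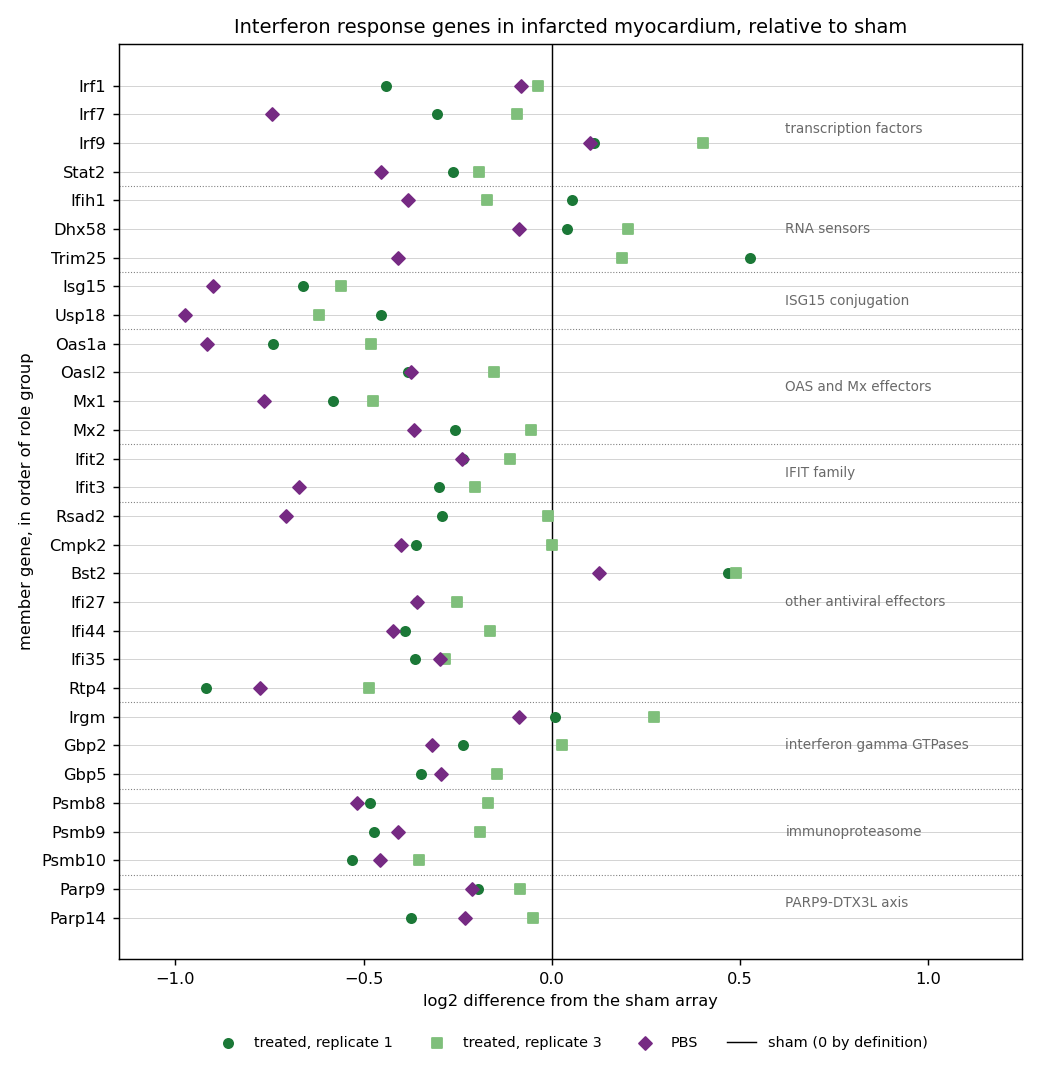
Log2 difference from the sham array (x axis) for each of the 30 members measured on all 4 myocardial arrays (y axis, grouped by role); points are single arrays: treated replicates 1 and 3 and PBS. Most points lie left of 0, where sham is, with Usp18, Isg15 and Oas1a on PBS furthest among the PBS points, and Bst2 and Irf9 to the right on all 3 infarcted arrays.

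Markers of cell types differed in this comparison too, in both directions, and their part in it was not tested. All 8 ventricular cardiomyocyte markers were lower on the PBS array (median -0.45), with a summed signal, relative to the 75th percentile, of 1553 to 1762 in treated, 1702 in PBS and 2336 in sham myocardium. T and NK cell markers were lower in 6 of 8 measured genes (median -0.30), with a summed signal of 2.05 to 2.17 in treated, 2.01 in PBS and 2.54 in sham myocardium, and with Cd3e, Cd2 and Cd4 not well above background in sham. The erythroid markers were lower in 5 of 5 (median -1.02; summed signal 414 to 505 in treated, 384 in PBS and 679 in sham myocardium). The measured neutrophil markers S100a8 and S100a9 were both lower (median -1.48), while Csf3r was not well above background on any array. Endothelial markers were lower in 3 of 4 (median -0.10), and the 1 measured B cell marker differed by -1.31. The macrophage and leukocyte list did not move that way: 4 of its 8 measured genes were higher and 4 lower (median -0.00). Its summed signal was 8.95 to 11.3 in treated, 10.3 in PBS and 9.29 in sham myocardium. Stromal markers were higher in 6 of 7 (median 0.09), as was the 1 measured plasmacytoid dendritic cell marker (0.14).

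The second comparison asked whether interferon response genes differed between infarcted myocardium that received labelled ADSCs and the PBS infarct. They were higher in both treated arrays for 22 of 30 measured members (38.8% of 16753 features were) and lower in both for 0 (34.1%). The single PBS array also served the first comparison, so the directions of both are not separate evidence. That array was the lowest of the 4 myocardial arrays for 20 of 30 members, against 30.6% of features. The count of members lying between PBS and sham rests on it too. The median difference was 0.21, against 0.01 over all features, and 0 of 30 members were 2-fold higher (0.406% of features) or 2-fold lower (0.758%). At 1.5-fold, 1 member, Trim25, was higher in both arrays (2.08% of features) and 0 were lower (2.47%). No single member passed: limma called 0 of 32 tested at an adjusted p under 0.05 (0.0589% of 18664 features) and 1 at an unadjusted p under 0.05 (9.92%). With 1 residual degree of freedom the fit has little power for differences of this size, so the absence of calls does not show that members were alike.

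Trim25 had the largest mean difference. Its levels were 1.00 and 0.66 in treated myocardium, 0.06 in PBS myocardium and 0.47 in sham myocardium. Both treated arrays stood above both other hearts, and the difference from PBS was 0.76 ± 0.24 (SD, n = 2; limma adjusted p = 0.453). Rsad2 had 1.07 and 1.35 in treated myocardium, 0.65 in PBS myocardium and 1.36 in sham myocardium, a difference from PBS of 0.55 ± 0.20 (SD, n = 2; limma adjusted p = 0.528). Replicate 3 was thus level with sham, and replicate 1 lay between sham and PBS.

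Irf7 had 1.97 and 2.18 in treated myocardium, 1.53 in PBS myocardium and 2.27 in sham myocardium. The treated arrays did not overlap with either of the other hearts, and the difference from PBS was 0.54 ± 0.15 (SD, n = 2; limma adjusted p = 0.504). Usp18 (-0.38 and -0.54 in treated myocardium) was above PBS by 0.44 ± 0.12 (SD, n = 2; limma adjusted p = 0.557). Ifit3 (-2.09 and -2.00 in treated myocardium) was above PBS by 0.42 ± 0.07 (SD, n = 2; limma adjusted p = 0.546). By role, the ISG15 pair had a median of 0.36 and the 3 measured RNA sensors one of 0.32. The immunoproteasome (0.08) and the PARP9-DTX3L group (0.04), which acts in DNA repair and interferon signalling, stayed near PBS.

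A minority of members lay at or below PBS in a treated array. Irf1, a factor of the gamma response, had 1.56 and 1.96 in treated myocardium, 1.92 in PBS myocardium and 2.00 in sham myocardium. Replicate 1 alone was low. Rtp4 had -0.30 and 0.13 in treated myocardium, against -0.16 in PBS myocardium, so the treated arrays lay on both sides of it. The sign of the mean difference from PBS changed under other settings for Ifi27, Ifi35, Psmb10 and Parp14, whose differences lay between -0.03 and 0.05.

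The treated arrays differed from each other about as much as from PBS. Replicate 3 was above replicate 1 for 27 of 30 members (background 58.0% of 16299 features), with a median difference of 0.20 between them, against 0.04 over all features, and 0 members were 2-fold apart. Measured singly, replicate 1 had a member median of 0.06 above PBS and replicate 3 one of 0.29, a spread of 0.16 (SD, n = 2). The difference from PBS was therefore larger in replicate 3. Replicate 1 was the lowest of the 4 myocardial arrays for 8 of 30 members, against 27.3% of features.

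In markers of other cells, the erythroid list stood at 1.03 above PBS in treated myocardium (4 of 5 higher in both arrays), and 6 of 9 measured macrophage and leukocyte markers were lower in both (median -0.19). T and NK cell markers had 3 higher, 3 lower and a median of 0.00. Their part in the result was not tested.

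Against sham, treated myocardium was lower in both arrays for 23 of 30 members (42.7% of 16406 features) and higher in both for 5 (32.5%), with a median of -0.23, against -0.04 over all features. The median was -0.35 with replicate 1 alone and -0.15 with replicate 3 alone. Of the 30, 0 were 2-fold lower (0.366% of features) or 2-fold higher (0.506%), and 0 were 1.5-fold lower (1.91%) or higher (1.98%). The PBS and sham comparisons of the treated pair share the treated arrays, so their directions are not separate evidence. The comparisons of treated and of PBS myocardium with sham likewise share the single sham array. In limma, 0 of 32 members passed at an adjusted p under 0.05 (0% of 18664 features) and 5 had an unadjusted p under 0.05 (10% of features): Isg15, Mx1, Oas1a, Usp18 and, as the higher one, Bst2.

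Isg15 had 0.85 and 0.95 in treated myocardium, against 1.51 in sham myocardium, a difference of -0.61 ± 0.07 (SD, n = 2; limma adjusted p = 0.462). Oas1a had -1.61 and -1.35 in treated myocardium, against -0.87 in sham myocardium (-0.61 ± 0.18, SD, n = 2; limma adjusted p = 0.492). Rtp4 was furthest below sham on average, at -0.70 ± 0.31 (SD, n = 2; limma adjusted p = 0.513). Bst2 was the member with the closest pair, at 0.48 ± 0.01 above sham (SD, n = 2; limma adjusted p = 0.495). In each of these genes both treated arrays lay on one side of sham, and each Bst2 value rests on 1 spot. All 8 cardiomyocyte markers (median -0.45) were also lower than sham in both treated arrays, where 42.7% of features were. So were 6 of 8 T and NK cell markers (median -0.34), both measured neutrophil markers (median -1.47) and 3 of 5 erythroid markers (median -0.41). Of 8 measured macrophage and leukocyte markers, 4 were lower in both arrays and 3 higher (median 0.05). Endothelial markers were lower in 2 of 4 (median -0.13), and stromal markers in 4 of 7, with 1 higher (median -0.13). The part of these markers in the result was not tested.

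**Figure D2:**
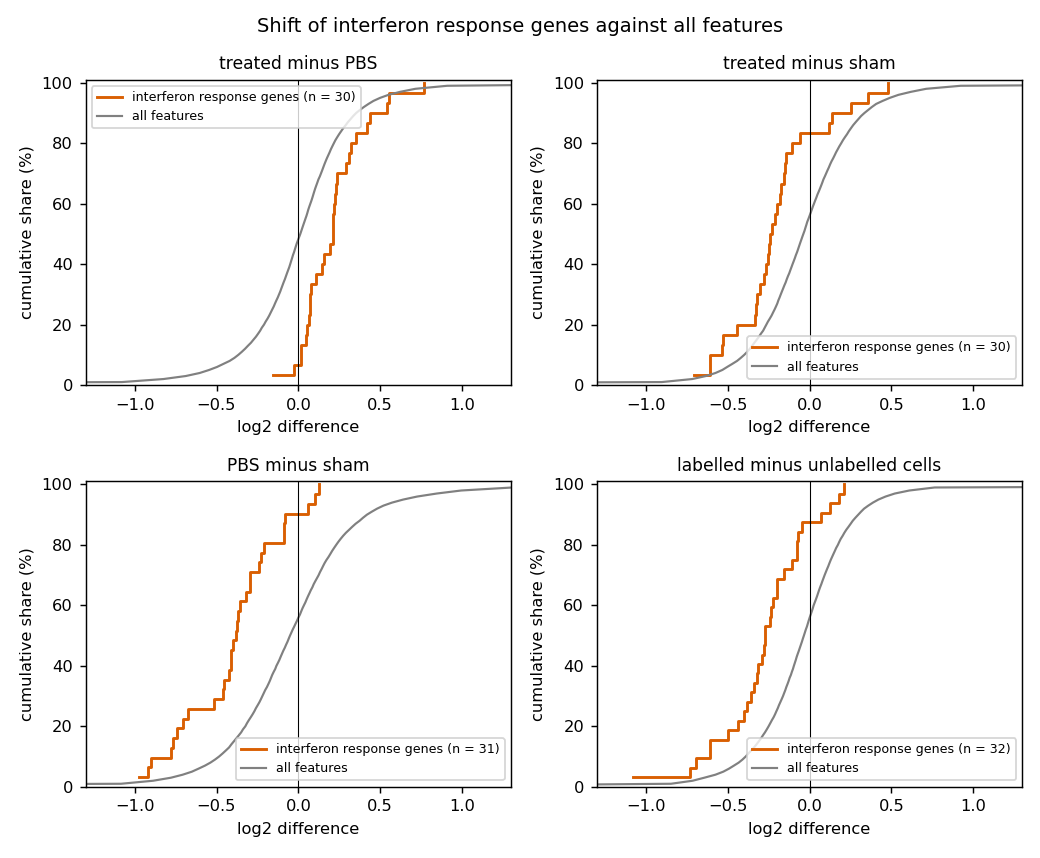
Cumulative share of genes (y axis, %) at or below a log2 difference (x axis) in 4 comparisons, for interferon response genes (orange steps) and all measured features (grey line). The orange curve lies right of the grey one over most of its length for treated minus PBS (medians 0.21 and 0.01) and left of it for treated minus sham, PBS minus sham and labelled minus unlabelled cells (medians -0.27 and -0.03 in the last).

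The third comparison set tracer-labelled ADSCs against unlabelled ADSCs in culture. Interferon response genes were lower in the labelled cells for 28 of 32 measured members (55.9% of 17841 features) and higher for 4 (44.1%). The median difference was -0.27, against -0.03 over all features. Only Trim25 was 2-fold lower (0.51% of features were) and 0 members were 2-fold higher (0.432%), and 5 members were 1.5-fold lower, where 3.83% of features were, and 0 were 1.5-fold higher (2.25%). There is 1 array of each, so no test was possible, and neither labelling nor culture can be told apart from the difference between 2 dishes.

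Trim25 had a level of 0.78 in labelled cells, against 1.85 in unlabelled cells, which is 2.11-fold lower. Mx2 had 3.39 in labelled cells, against 4.12 in unlabelled cells. Bst2 had -1.55 in labelled cells, against -0.85 in unlabelled cells. Oas1a had -1.99 in labelled cells and -1.38 in unlabelled cells, and Rtp4 -0.22 in labelled cells and 0.38 in unlabelled cells. These were the 5 members past 1.5-fold.

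Smaller differences ran the same way across most role groups. All 5 OAS and Mx members were lower (median -0.38), as were all 3 measured RNA sensors (-0.40), all 4 transcription factors (-0.28), all 3 immunoproteasome subunits (-0.29) and all 3 members of the PARP9-DTX3L group (-0.27). Stat2, the subunit that gives the interferon complex its activating domain, had 2.60 in labelled cells, against 3.09 in unlabelled cells. Isg15 had 1.77 in labelled cells and 2.04 in unlabelled cells.

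The 4 members that were higher in labelled cells were Rsad2 (0.58 in labelled cells, 0.37 in unlabelled cells), Cmpk2 (-1.70 and -1.88 in the same order), Ifit3 (-2.81 and -2.93) and Irgm (-1.55 and -1.62), a GTPase of the gamma response. Rsad2 and Cmpk2 are known to lie side by side in the genome. The largest of these differences was that of Rsad2, 0.21, whose spots had an SD of 0.032 in labelled and 0.052 in unlabelled cells. Cmpk2 had spot SDs of 0.049 and 0.139 in the same order, beside a difference of 0.18. The spot SDs of Ifit3 (0.183 and 0.165) were larger than its difference of 0.12. Those of Irgm (0.106 and 0.119) were larger than its difference of 0.07. Where members had a second probe, it ran the same way: Usp18, Irf1, Parp14 and Gbp5 had differences of -0.24, -0.20, -0.27 and -0.43 on the probe used and -0.30, -0.38, -0.48 and -0.75 on the other. The dimmer Gbp5 probe was not well above background in labelled cells.

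**Figure D3:**
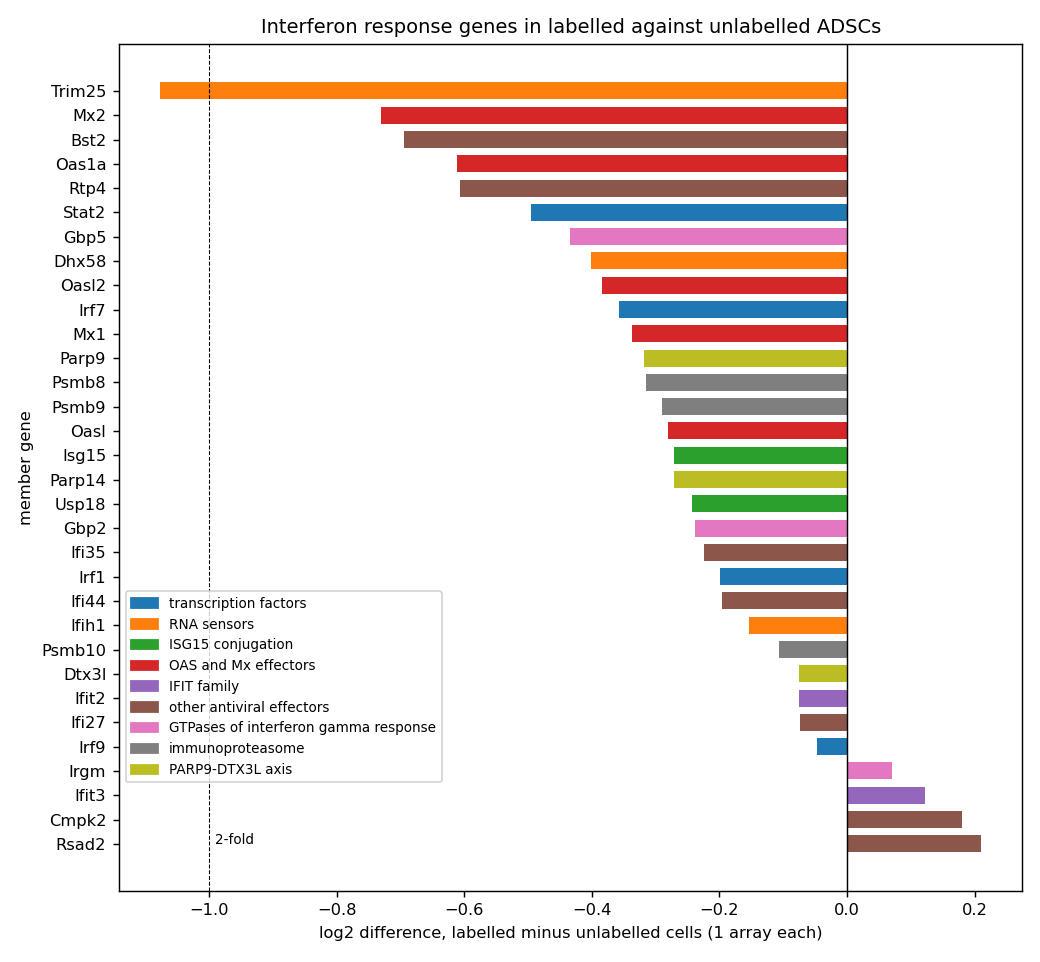
Log2 difference of labelled minus unlabelled ADSCs (x axis, 1 array each) for the 32 members measured on both cell arrays (y axis, sorted, coloured by role). Bars reach left of 0 for 28 members, and only Trim25 passes the dashed line at 2-fold.

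PBS and sham hearts share no array with the cell comparison. Of the 30 members measured on all 6 arrays, 24 were both lower on PBS than on sham and lower in labelled than in unlabelled cells, where 31.9% of 15249 features were. Singly, 28 were lower on PBS and 26 in labelled cells, so the joint count follows from these and shows no link between the comparisons. The 6 that were not are Irf9, Ifit3, Rsad2, Cmpk2, Bst2 and Irgm. Of them, Ifit3, Rsad2, Cmpk2 and Irgm were lower on PBS but higher in labelled cells, and Irf9 and Bst2 were higher on PBS but lower in labelled cells. Of the 10 macrophage and leukocyte markers, 6 were well above background in unlabelled cells, while Ptprc, Itgam, Cd163 and Mrc1 were not. In labelled cells 5 were, as Adgre1 was not well above background there either. The whole macrophage and leukocyte list had a summed signal of 1.76 in labelled and 1.61 in unlabelled cells, while 4 of its 5 genes measured in both were lower in labelled cells (median -0.16). Its part in the result was not tested.

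In cultured ADSCs, interferon response genes stood above or below their level in heart tissue about as often as all features did. Unlabelled cells were higher than sham myocardium for 16 of 31 measured members (50.4% of 15789 features) and lower for 15 (49.6%), with a median of 0.05, against 0.01 over all features. The sign of this median depended on the scaling. In all, 5 members were 2-fold higher (20.4% of features) and 4 were 2-fold lower (23.3%). Both shares of members, 16.1% and 12.9%, were below those of all features. At 1.5-fold, 10 were higher (31.3%) and 5 lower (32.4%).

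The 5 higher ones were Stat2 (3.09 in unlabelled cells, 1.68 in sham myocardium), Trim25 (1.85 and 0.47 in the same order), Psmb8 (1.28 and 0.06), Parp14 (2.54 and 1.47) and Irgm (-1.62 and -2.63). The 4 lower ones were Bst2 (-0.85 in unlabelled cells, 1.33 in sham myocardium), Cmpk2 (-1.88 and -0.36 in the same order), Gbp5 (-1.96 and -0.81) and Ifit3 (-2.93 and -1.79). Gbp5, a guanylate-binding protein that helps assemble inflammasomes, and Gbp2, which coats intracellular pathogens, thus stood on opposite sides, since Gbp2 had 2.42 in unlabelled cells and 1.68 in sham myocardium. Ifi27, a mitochondrial protein, was alike throughout, with 6.04 in labelled and 6.11 in unlabelled cells and 5.84, 5.95, 5.84 and 6.20 in treated replicates 1 and 3, PBS and sham myocardium.

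Both cell arrays were above all 4 myocardial arrays for 12 of 30 members (41.8% of 15249 features) and below all 4 for 6 (38.8%). The first count, 40% of members, was close to the share of all features, and the second, 20%, was below it. The first set held Stat2, Irf9, Isg15, Oasl2, Ifit2, Ifi35, Irgm, Gbp2, Psmb8, Psmb10, Parp9 and Parp14. The second held Bst2, Rsad2, Cmpk2, Ifit3, Gbp5 and Irf1. The remaining 12 members overlapped.

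**Figure D4:**
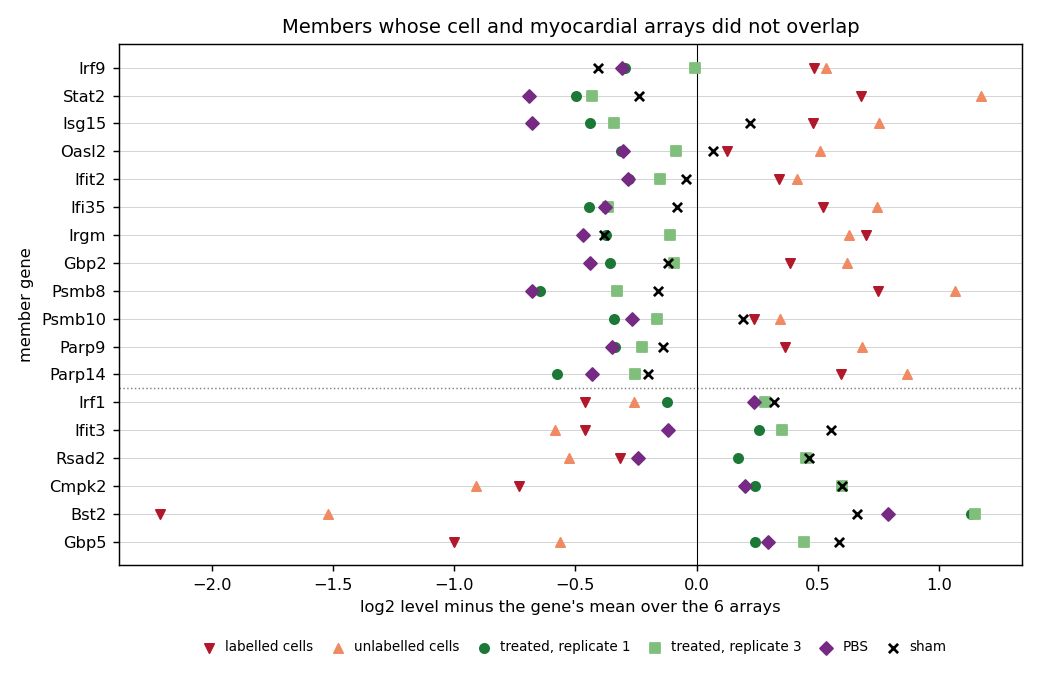
Level of each member minus its mean over the 6 arrays (x axis, log2) for the 18 members (y axis) whose cell and myocardial arrays did not overlap; each point is 1 array. The 12 members above the dotted line are higher in cells, the 6 below it lower, and the widest gap is that of Bst2.

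The pathway outside the member list was taken from a list of 72 genes, of which 54 were on the array. The interferon genes Ifnb1, Ifng and Ifnk were not well above background on any array. Ifna4 was measured on all 6, with levels of -3.74 and -3.56 in treated, -3.81 in PBS and -3.76 in sham myocardium and -3.48 in labelled and -3.22 in unlabelled cells. Alpha interferons resemble each other closely, so this probe may read several. The Ifnar1 receptor chain had -2.94 and -2.77 in treated, -2.91 in PBS and -3.04 in sham myocardium, so treated replicate 3 was highest and sham lowest. The gamma receptor chain Ifngr1 had 2.02 and 1.99 in treated, 1.81 in PBS and 1.56 in sham myocardium. It was thus higher than sham on all 3 infarcted arrays. Ifngr2 had 0.16 and 0.06 in treated, 0.13 in PBS and 0.37 in sham myocardium, and was lower on all 3. Ifnlr1, of the lambda receptor, was measured in the cells only.

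The lists within these pathway genes differed in direction. The other interferon-stimulated genes were lower on the PBS array than on the sham array in 14 of 21 (55.9% of features), with a median of -0.17. In treated against PBS myocardium, 10 of 20 were higher in both arrays (38.8% of features) and 4 lower (34.1%), with a median of 0.15. The nucleic acid sensing genes had medians of 0.23 (PBS against sham) and -0.11 (treated against PBS), and the signal transducers and factors 0.14 and -0.12 in the same order. Over all lists, on the PBS array 22 of 44 measured were higher than sham (44.1% of features) and 22 lower (55.9%), with a median of 0.00. In treated against PBS myocardium, 16 of 43 were higher in both arrays (38.8%) and 13 lower (34.1%), with a median of 0.03. Against sham, 15 of 43 treated values were higher in both arrays (32.5%) and 18 lower (42.7%), with a median of -0.05. In labelled against unlabelled cells, 12 of 44 were higher (44.1%) and 32 lower (55.9%), with a median of -0.12. None of the genes named from these lists passed in limma.

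Against sham, the chemokine Cxcl11 was lowest of these genes in PBS and in treated myocardium, at -0.39 in both treated arrays, -0.73 in PBS and 0.67 in sham myocardium. All 3 infarcted arrays were thus below sham. Trex1, a nuclease that removes stray DNA, had 0.60 and 0.29 in treated, 0.17 in PBS and 1.04 in sham myocardium. The kinase Ikbke ran the other way, with -1.74 and -1.60 in treated, -1.13 in PBS and -1.71 in sham myocardium, so PBS alone was high. Jak2, a kinase of the gamma receptor, was higher on PBS than on sham by 0.49.

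The chemokine Cxcl9 and the secreted protein Lgals3bp stood highest in treated over PBS by the smaller of both differences, at means of 0.54 ± 0.02 and 0.49 ± 0.02 (SD, n = 2). Trim21 was lowest there, at -0.55 ± 0.05, beside Ikbke at -0.55 ± 0.10 (SD, n = 2). The peptide transporter Tap2 was highest in treated over sham, at 0.63 ± 0.24 (SD, n = 2), beside Ifngr1. In labelled against unlabelled cells, Samhd1, a nucleotide hydrolase that starves viruses, was lowest at -0.55, followed by Tap2 at -0.53, while the chemokine Cxcl10 was highest at 0.57, followed by the kinase Tbk1 at 0.25. In unlabelled cells against sham myocardium, Ikbke (3.73) and Jak2 (2.73) were highest, and Cxcl11 (-6.05) and Mavs (-2.16), the adaptor of the RNA sensors, were lowest.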

How the data were processed

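Total RNA of myocardial tissue or cultured cells was labelled with Cy3 using an Agilent kit, per the labels' protocols, and hybridised to 6 one-colour arrays of 1 rat design. The authors deposited scanner output with intensity values for 58717 spots per array, and the submitters' processing notes name Feature Extraction 11.0.1.1. The file headers name the rn4 build, and no array coordinates are used. A deposited log2 table comes from the authors too, and how it was made is not stated in the labels. Its 4 myocardial columns share a median of 8.85 and its 2 cell columns one of 9.67, and each column rose with the log2 scanner signal of its array (Pearson's r at least 0.9998), so it was used only within myocardium and within cells.

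Spots that were controls or flagged as outliers were dropped, and the spots of a probe averaged. Of 30367 probes, 18355 were named by matching unversioned accessions to RefSeq genes of GRCr8. The brightest probe by mean over the 6 arrays stood for a gene. Processed log2 signal minus the array's 75th percentile was compared between arrays, over features that all of those arrays measured well above background. A member was counted for the treated pair only where both arrays passed. Treated comparisons were fitted with limma 3.58.1 (R 4.3.3; lmFit, eBayes, Benjamini-Hochberg adjustment) on the myocardial arrays (18664 features that at least 1 of the 4 measured). Only the treated pair gives a residual degree of freedom, so sham and PBS were assumed to vary like it. The fit was tested on simulated data. Figures were drawn with matplotlib 3.10.9.

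Members, role groups, pathway and marker lists were chosen with earlier results of these data known. All members were described. Levels on the arrays were given for up to 3 members a role group with a wide spread and for those 2-fold apart in a comparison, and further members were named after their values were seen. Other pathway genes are the 2 highest and 2 lowest per comparison, plus interferons and receptors, except 1 gene that is not reported here. Alternatives covered background correction, scaling, source of values, probe choice, filter, fold threshold, variance model and single treated replicates. The files hold no mean signal, so normexp (offset 50) used the median signal. The number of arrays limits the precision.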

Additional observations from a re-analysis of the deposited data

How the results depend on the processing

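Medians of the members kept their sign under every alternative run in treated against PBS (0.06 with replicate 1 alone to 0.29 with replicate 3 alone), treated against sham (-0.35 to -0.15, the ends being replicate 1 alone and replicate 3 alone), PBS against sham (-0.45 to -0.32) and labelled against unlabelled cells (-0.29 to -0.23). In unlabelled cells against sham the median moved to 0.31 with median scaling and 0.23 with quantile normalization, and turned to -0.038 with the 75th percentile over commonly measured probes and -0.068 with no filter. The median of all features in that comparison was 0.27 with median scaling, 0.12 with quantile normalization, -0.23 with normexp and -0.39 with no filter, so its differences are relative to those shifts. With normexp the median of all features was -0.13 in PBS against sham and -0.12 in treated against sham, and with median scaling it was -0.12 in PBS against sham.

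Members counted as higher than PBS in the treated arrays used ranged from 20 to 30 over the alternatives. The 30 came from replicate 3 alone, and median scaling, with both arrays required, gave 27. Those lower in both, 0 as reported, numbered 1 with the common-probe percentile, with probe means and with no filter. They numbered 2 with quantile normalization, normexp and the authors' table. Leaving out a treated replicate gave 1 to 8 members lower than PBS. Treated against sham, 19 to 24 were lower, and 3 were higher with normexp. PBS against sham, 27 to 30 were lower and 1 was higher with normexp. Labelled against unlabelled, 27 to 29 were lower. Counts of 2-fold members changed to 1 with median scaling (lower on PBS than sham), and in unlabelled cells against sham to 8 higher and 2 lower with median scaling and to 3 higher with the common-probe percentile. At 1.5-fold, 1 member was higher in treated than PBS, 8 lower on PBS than sham, 5 lower in labelled cells and 10 higher in unlabelled cells than sham. Under each of the 9 alternatives limma called 0 members, which says nothing of stability at 1 residual degree of freedom, with smallest adjusted p-values of 0.193 to 0.627 for treated against PBS and 0.223 to 0.62 for treated against sham. The sign counts were chosen as results after seeing the data. The authors' table was not run for cells against sham, since its columns were scaled separately. The causes of these changes were not tested. Leaving out a treated replicate was run for the medians and counts, not for limma. No paired analysis was possible because the groups compared with the treated pair hold 1 array each.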
